A study of Mus musculus with 10 samples.

Results

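The 7 genes described here form the signalling path of the microglial receptor Trem2, together with the sialic acid receptor Cd33. They were taken by name from the 31053 genes of the count matrix, and all 7 are in it. Trem2 is the receptor, Tyrobp and Hcst are the adaptors that signal for it, Syk and Plcg2 are the kinase and the phospholipase downstream, Inpp5d is a phosphatase that restrains the path, and Cd33 is a receptor of its own.

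Single-cell RNA sequencing was performed on CD45+ cells sorted from whole brains, to ask whether loss of the inflammasome sensor Nlrp3 changes microglia at rest or under amyloid pathology. The groups were WT and Nlrp3KO mice of 3, 6 or 9 months and, of 3 or 9 months, APP/PS1 and Nlrp3KO APP/PS1 mice, all litter-mates. APP/PS1 mice express mutant APP and mutant human PS1 from transgenes in neurons and deposit amyloid, while WT and Nlrp3KO mice, called non-diseased here, carry no such transgene. Nlrp3KO mice carry the deletion (Nlrp3-/-) in the germ line, so that its effects are not those of microglia alone. Each of the 10 libraries is a pool of 3 mice (2 males and 1 female), and there is 1 library per genotype and age. Each age is a batch of its own, which means that an age effect and a batch effect cannot be told apart, whereas libraries of the same age lie within a batch.

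TREM2 binds lipids, lipoproteins and amyloid at the microglial surface but has almost no signalling tail of its own. It signals through TYROBP (also called DAP12), whose tyrosine motif is phosphorylated by Src family kinases and then docks SYK, which in turn activates PLCG2 and calcium release. HCST (also called DAP10) is a second adaptor that recruits PI3-kinase, and the lipid that PI3-kinase makes is removed by the phosphatase INPP5D (also called SHIP1). Human CD33 is a sialic acid receptor whose inhibitory motif recruits phosphatases that act against this path, while mouse Cd33, the gene measured here, differs from it in the membrane and tail parts and is not known to act the same way. In people, variants near several of these genes are linked to the risk of Alzheimer's disease. Microglia that gather at amyloid plaques enter a state known as disease-associated microglia (DAM), and the full form of that state is known to need Trem2.

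Microglia made up 40547 of the 45472 cells and held between 9357431 and 35107144 unique molecular identifiers (UMIs, tags that each mark 1 captured RNA molecule) per library. Levels are given as CPM, the UMIs of a gene scaled to the summed UMIs of the same cells. Because tags mark the ends of transcripts and were not divided by length, a level is compared between cells and libraries but not between genes. The deposited annotation places each microglia in 1 of 6 states: homeostatic (HM), TM, interferon-response (IRM), immediate early gene (IEG), DAM and proliferating (PM). Nlrp3 itself had between 34.4 and 53.7 CPM in the microglia of the 5 libraries with intact Nlrp3 and 0 UMIs in all 5 Nlrp3KO libraries, where a count of 0 allows up to 3 UMIs per library. Of the microglial markers, Cx3cr1 had 4866 CPM, P2ry12 3183 CPM and Tmem119 1579 CPM in microglia pooled over libraries, and the 6 markers of border macrophages summed to 4.57 to 14.1 CPM per library there. Of the cell barcodes, 246 of 45225 occurred in more than 1 library, and no pair of libraries shared more than 16.

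The 7 genes lie on 5 mouse chromosomes (mm10, GENCODE M21). Trem2 spans chr17:48346401-48354147 on the plus strand, Syk chr13:52583173-52648792, Plcg2 chr8:117498291-117635142 and Inpp5d chr1:87620312-87720507, all on the plus strand. Cd33 spans chr7:43524216-43544428 on the minus strand. The adaptors are neighbours on chromosome 7: Tyrobp (chr7:30413760-30417585, plus strand) and Hcst (chr7:30417712-30419854, minus strand) have facing 3' ends with 126 bases between them. The strand setting of the counting is not given in the sources used here.

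Promoter sequences (RefSeq, GRCm38.p6, 250 bases before to 50 after the start) were matched for 6 of the 7 genes, in 7 entries since Syk has 2, and Tyrobp is the gene not matched. The letters AGGAAG, the core recognised by ETS factors of the PU.1 type that act in myeloid cells, were searched on both strands (as AGGAAG or CTTCCT). They occurred in 11613 of 32851 promoters (35.4%), and at least 2 matches occurred in 8.62%. Cd33 had 3 matches, Hcst 2, Inpp5d 2 and Trem2 1, while Plcg2 and both Syk entries had none. A match is a description of the letters and not of a binding site. The Cd33 entry starts 11257 bases inside the longest GENCODE gene. The promoters of Trem2, Hcst and Cd33, the matched genes with an adjusted p under 0.05 for amyloid in DAM, are printed 5' to 3' with the matches in capitals.
Trem2 promoter, chr17:48346151-48346450, plus strand: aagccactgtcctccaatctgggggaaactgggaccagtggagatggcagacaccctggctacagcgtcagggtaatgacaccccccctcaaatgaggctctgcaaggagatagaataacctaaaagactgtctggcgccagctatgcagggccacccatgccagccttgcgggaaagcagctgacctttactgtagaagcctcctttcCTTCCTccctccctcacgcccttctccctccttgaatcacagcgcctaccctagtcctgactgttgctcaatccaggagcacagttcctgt
Hcst promoter, chr7:30419805-30420104, minus strand: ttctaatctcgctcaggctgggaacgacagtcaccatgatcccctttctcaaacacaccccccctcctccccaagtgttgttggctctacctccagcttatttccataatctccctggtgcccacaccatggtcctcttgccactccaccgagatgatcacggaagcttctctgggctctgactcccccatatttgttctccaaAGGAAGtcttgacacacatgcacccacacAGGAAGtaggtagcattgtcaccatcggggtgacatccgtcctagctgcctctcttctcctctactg
Cd33 promoter, chr7:43533122-43533421, minus strand: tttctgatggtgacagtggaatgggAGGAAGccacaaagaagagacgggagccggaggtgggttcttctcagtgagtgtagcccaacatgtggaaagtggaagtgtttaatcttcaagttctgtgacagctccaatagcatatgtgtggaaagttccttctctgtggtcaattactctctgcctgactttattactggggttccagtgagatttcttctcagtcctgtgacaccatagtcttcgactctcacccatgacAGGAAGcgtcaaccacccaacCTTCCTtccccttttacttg

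Trem2 was carried by microglia, with a lower level in border macrophages and little elsewhere. In HM it had 3068 ± 177.5 CPM (SD, n = 10 libraries), in DAM 4168 ± 1077 CPM, in IEG 3565 ± 254.6 CPM and in PM, the lowest microglial state, 2428 ± 242.0 CPM. Border-associated macrophages (BAM) held 775.5 ± 92.5 CPM and the Lyve1 subset 918.0 ± 190.9 CPM (n = 9). The neighbours DAM and IEG, HM and TM, and the 2 macrophage sets differed by less than the spread of their paired differences, while the step from PM down to the Lyve1 subset was beyond it in 9 of 9 libraries. T cells, which should lack Trem2, had 123.2 CPM over all cells, with at least 1 UMI in 12.7% of them. Without T cells of a doublet score over 0.5 this fell to 18.0 CPM and 8.65% of cells, at medians of 5810 and 5695 UMIs per cell, so the T cell values are read as background. Monocytes stood above that, with 172.9 CPM pooled over libraries and a UMI in 61.1% of 149 cells, and 114.0 CPM and 58.3% without high doublet scores, at a higher median of 10785 and 10768 UMIs per cell.

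Tyrobp was shared more widely among myeloid cells and natural killer (NK) cells. Its mean over libraries was 4868 ± 1951 CPM in DAM, 3593 ± 174.1 in TM, 2992 ± 102.5 in HM, 2949 ± 193.3 in Lyve1 BAM, 2557 ± 94.8 in BAM, 2408 ± 228.1 in NK cells (n = 7) and 2039 ± 139.1 in cDC2 (n = 3). Pooled over libraries, plasmacytoid dendritic cells had 4975 CPM, monocytes 3632 CPM and non-classical monocytes 3579 CPM, from 102, 149 and 138 cells. T cells had 155.1 CPM, or 47.7 CPM without high doublet scores. Within microglia, TM was above HM in 10 of 10 libraries, by 0.26 ± 0.06 on the log2 scale (SD), whereas IRM and HM differed by less than the spread of their paired differences.

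Hcst was high in T, NKT and NK cells but not in B cells, which had the lowest mean of the types ordered (22.1 ± 14.05 CPM, n = 8). Its highest levels were in T cells (771.3 ± 145.4 CPM, n = 10), NKT cells (736.0 ± 58.4 CPM, n = 3) and NK cells (662.2 ± 109.7 CPM, n = 7), and the step from NK cells down to DAM (67.9 ± 25.7 CPM) was beyond the spread in 7 of 7 libraries. Types too rare for that order lay between them, with 392.7 CPM in ILC2 (157 cells) and 243.4 CPM in neutrophils (79 cells), pooled over libraries. HM held 31.7 ± 3.37 CPM, and below DAM no neighbouring pair in the order of levels differed beyond its spread. Of the UMIs of both adaptors together, Hcst made up 1.06% in microglia (95% exact binomial interval 1.04% to 1.09%, counting error only), 21.7% in NK cells, 84.0% in T cells and 95.4% in NKT cells. Of these types, the Hcst share was lowest in microglia, intermediate in NK cells and highest in T and NKT cells, on UMIs that were not divided by length.

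The intracellular enzymes were spread over more cell types. Syk was highest in B cells (281.8 ± 52.2 CPM, n = 8), where it acts below the antigen receptor, and this was above HM (106.4 ± 6.14 CPM) in 8 of 8 libraries. DAM held 75.1 ± 27.2 CPM and T cells 3.76 ± 6.95 CPM. Plcg2 had 94.2 ± 32.1 CPM in cDC2, 81.6 ± 21.2 in DAM, 78.2 ± 3.86 in HM and 73.1 ± 28.0 in B cells, and none of the neighbours from cDC2 down to IEG differed beyond their spread. T cells held 5.54 ± 4.61 CPM of Plcg2. Syk and Plcg2 were thus both present in HM, DAM and B cells and near background in T cells. NK cells held 44.5 ± 9.91 CPM of Syk and 42.2 ± 10.2 CPM of Plcg2 (n = 7). Lyve1 BAM held 80.3 ± 19.0 CPM of Syk but 24.9 ± 9.45 CPM of Plcg2 (n = 9).

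Inpp5d and Cd33 were highest in HM. Inpp5d had 512.3 ± 23.4 CPM in HM and 464.3 ± 22.9 in IRM, with HM higher in 10 of 10 libraries, then 411.5 ± 84.3 in DAM, 202.9 ± 21.5 in BAM and 91.6 ± 33.3 in T cells. Cd33 had 408.7 ± 25.9 CPM in HM, 372.0 ± 44.8 in IRM, 327.5 ± 29.5 in TM, 302.6 ± 76.4 in DAM and 278.2 ± 14.2 in Lyve1 BAM. The steps of Cd33 from HM to IRM and from IRM to TM were beyond the spread in 10 of 10 libraries each, and DAM, PM, IEG and Lyve1 BAM followed without a step beyond the spread. T cells had 17.3 CPM of Cd33, and 2.27 CPM without high doublet scores.

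**Figure D1:**
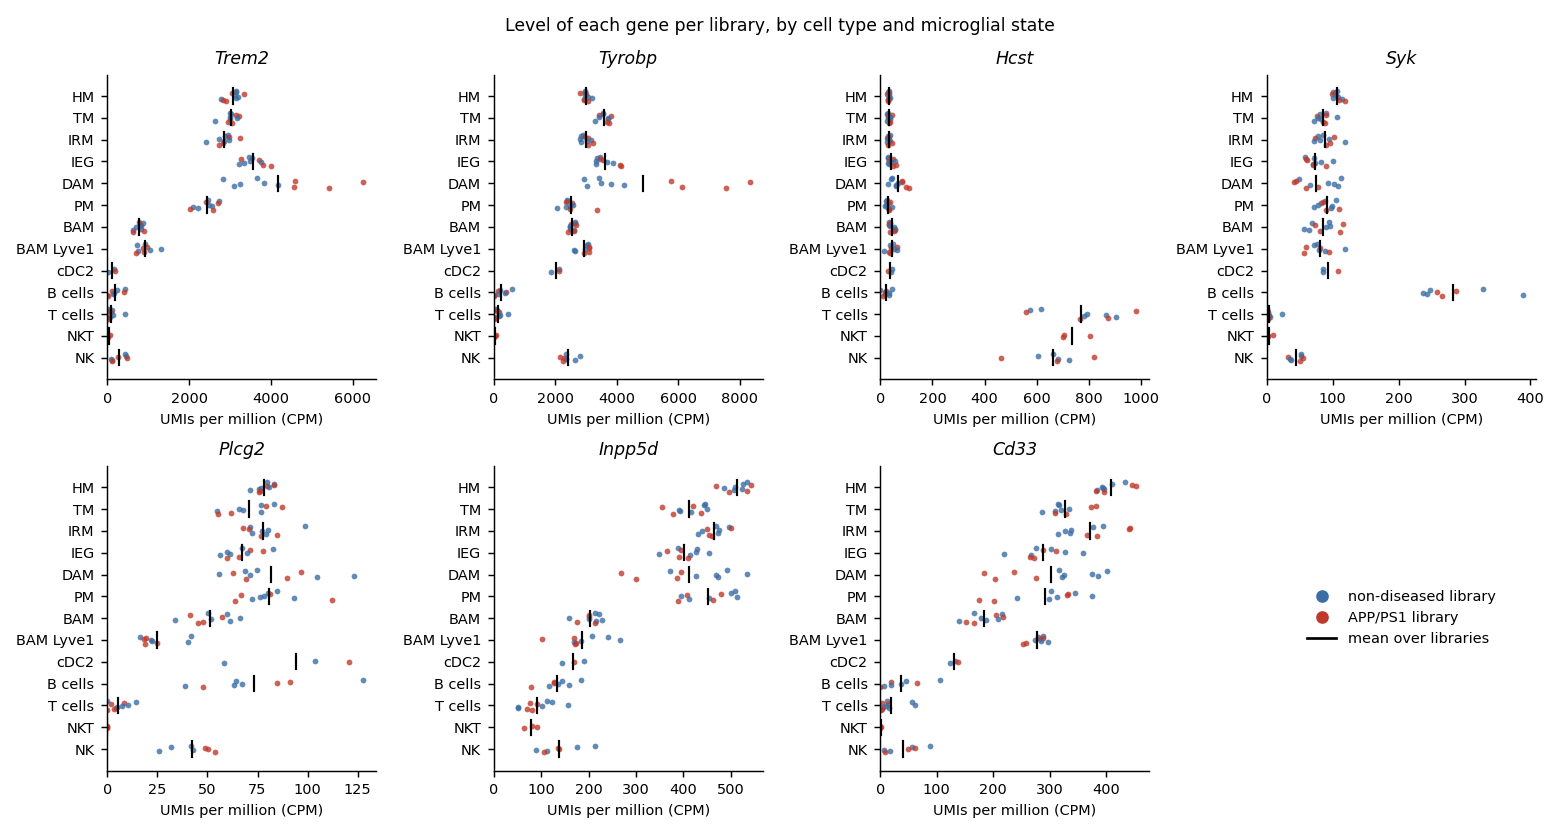
Levels of the 7 genes (horizontal axis, CPM) by cell type and microglial state, with 1 point per library that holds at least 20 cells of the type and a bar at the mean. Trem2, Inpp5d and Cd33 were highest in microglial states, Hcst in T, NKT and NK cells, and Syk in B cells, and the amyloid libraries (red) stand to the right of the others in DAM for Trem2, Tyrobp and Hcst.

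The share of microglia with at least 1 UMI followed these levels and the depth of sequencing. It was 99.97% for Trem2, 99.96% for Tyrobp, 87.4% for Inpp5d, 79.6% for Cd33, 36.0% for Syk, 29.9% for Plcg2 and 13.4% for Hcst. When each cell was thinned to 1500 UMIs the shares were 98.3%, 98.2%, 51.8%, 43.8%, 13.7%, 10.9% and 4.61%, so a microglia without a UMI of the last 5 genes is not a cell shown to lack them.

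Trem2 and both adaptors were higher in DAM than in HM of the same library, most of all in the amyloid libraries, and Syk, Inpp5d and Cd33 were lower. States are clusters of these same cells, so the ratios are a description with no test. For Tyrobp the log2 ratio of DAM to HM averaged 1.22 in the 4 amyloid libraries, from 1.035 to 1.47, and 0.20 in the 6 non-diseased ones, where the highest was 0.405. Trem2 averaged 0.77 and 0.16, and Hcst 1.66 and 0.57, in the same order. Cd33 averaged -0.91 in the amyloid libraries and -0.19 in the others and was lower in DAM in 10 of 10 libraries. Inpp5d averaged -0.61 and -0.16, Syk -0.995 and -0.32, and Plcg2 -0.01 and 0.04. The receptor and both adaptors were higher in DAM in 9 of 10 libraries each, Syk and Inpp5d in 1 of 10, and Plcg2 in 4 of 10.

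**Figure D2:**
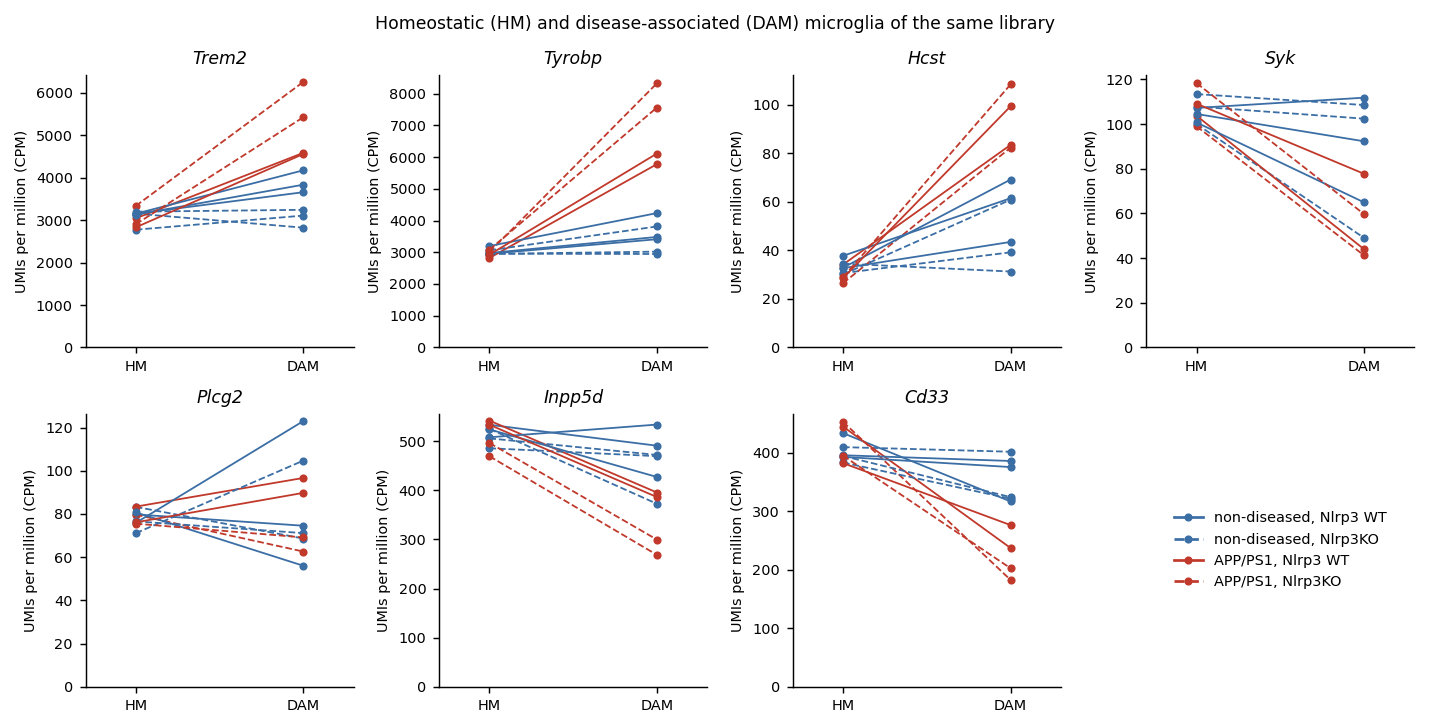
Level of each gene in HM and DAM (vertical axis, CPM), with a line for each of the 10 libraries, red for APP/PS1 and dashed for Nlrp3KO. HM levels lie close together in all libraries, whereas DAM levels of Tyrobp run from 2946 to 8326 CPM and those of Cd33 from 182.8 to 401.9 CPM.

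The cells labelled DAM differed in their markers between libraries, which bears on every DAM value given here. The DAM marker Cst7, a cystatin, had between 848.1 and 2785 CPM in DAM of the amyloid libraries but only 74.0 to 205.0 CPM in DAM of the non-diseased ones, against 7.82 to 39.1 CPM in HM. Lpl, a lipase, had 348.2 to 784.1 CPM and 6.83 to 96.7 CPM in the same order, and the homeostatic receptor P2ry12 had 1552 to 2377 CPM and 2210 to 3715 CPM. At 9 months P2ry12 in DAM was above HM of the same library in WT (3441 against 3035 CPM) and Nlrp3KO (3715 against 2975 CPM). In the other libraries it was below HM. By these markers DAM of the amyloid and the non-diseased libraries are not alike, so a comparison within DAM is one of cells under the same label. DAM-labelled cells numbered 24, 83, 253 and 202 in the amyloid libraries and 31 to 102 in the others. Their median depth was 6185 to 8018.5 UMIs per cell in the amyloid libraries and 4691 to 5397 in the others, and the share of them with a doublet score over 0.5 was 12.7% to 22.8% and 2.70% to 11.9%. The 6 border macrophage markers summed to 8.79 to 41.2 CPM and 0 to 55.9 CPM, with Lyve1 at 0 in all 10 libraries. The 2 annotations agreed least on DAM at 6 months, where 34 of 55 in WT and 19 of 59 in Nlrp3KO were DAM in both. At 9 months this held for 248 of 253 in APP/PS1 and 196 of 202 in Nlrp3KO APP/PS1. The part of these differences in the results below was not tested.

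In microglia as a whole, none of the 7 genes passed the test between APP/PS1 and non-diseased libraries. Libraries were compared as 4 pairs of the same age and Nlrp3 genotype by edgeR's quasi-likelihood test with Benjamini-Hochberg adjustment over all genes, on UMIs summed over the microglia of a library. A call needed both an adjusted p below 0.05 and a log2 fold change beyond 1 in either direction. The p-values rest on the spread between these libraries, with the spread of each gene moderated by that of all genes tested. They are therefore not those of a plain test on 4 pairs. By that rule 0 of 7 genes were called, against 0.0407% of all genes tested, and by adjusted p alone 0 of 7, against 0.057%. No member had an unadjusted p under 0.05 by edgeR or by DESeq2.

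Tyrobp had 2988, 2990, 3262 and 2969 CPM in the WT and Nlrp3KO libraries at 3 and at 9 months, and 2929, 3164, 3600 and 3989 CPM in their APP/PS1 partners. It was higher in both 9-month amyloid libraries and, at 3 months, lower in one pair and higher in the other, with a log2 fold change of 0.17 (SE 0.09, adjusted p = 0.7001 by edgeR). Trem2 was at 3144, 3146, 3115 and 2766 CPM in the non-diseased libraries and 3060, 3383, 3166 and 3404 CPM in their partners (0.11, SE 0.08, adjusted p = 0.745 by edgeR). Hcst was at 0.19 (SE 0.11), Syk at -0.04 (SE 0.05), Plcg2 at 0.00 (SE 0.05), Inpp5d at -0.09 (SE 0.05) and Cd33 at -0.01 (SE 0.05) on the log2 scale. Summed microglia are a mixture, so a change in the share of a state and a change within a state cannot be told apart in these values. In HM alone Trem2 was at -0.02, Tyrobp at -0.03 and Hcst at -0.15, and with DAM left out they were at 0.02, 0.03 and -0.01. The small positive values of all 3 genes in all microglia were thus small negative ones in HM alone.

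In cells labelled DAM, both adaptors were higher in the amyloid libraries than in their partners, and Trem2 was higher and Cd33 lower by less than the fold limit. Of the 7 genes, 2 (Tyrobp and Hcst) were called, against 2.87% of all genes tested in DAM, and 4 had an adjusted p under 0.05 (with Trem2 and Cd33), against 7.61%. With DAM taken from the annotation of all CD45+ cells none was called, Tyrobp being at 0.77 and Hcst at 0.89 with adjusted p-values of 0.00169 and 0.00415 by edgeR. The median log2 fold change of all genes tested in DAM was -0.03. Where the amyloid libraries are said below to lie apart from all others, the share of all genes that do so is not given here. Nothing is read from such a separation.

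Tyrobp in DAM had 3411 CPM in WT and 5778 in APP/PS1 at 3 months, and 4234 and 6112 at 9 months. In Nlrp3KO it had 2946 and 8326 CPM at 3 months, and 3020 and 7562 at 9 months. The 2 non-diseased libraries of 6 months, outside the pairs, had 3483 and 3813 CPM. The 4 amyloid libraries were all above the 6 others, and the log2 fold change was 1.19 (SE 0.16, adjusted p = 2.09e-05 by edgeR's quasi-likelihood test). This call by adjusted p held in every alternative run, with values between 0.77 and 1.39. The fold change is a mean over pairs, and the rise was larger in both Nlrp3KO pairs than in both pairs with intact Nlrp3. The term for that difference, given below as the one between backgrounds, did not pass the adjusted test.

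Hcst in DAM rested on few UMIs, 7 to 32 in the non-diseased libraries and 19 to 165 in the amyloid ones. Its levels at 3 months were 43.5 CPM in WT, 83.5 in APP/PS1, 39.2 in Nlrp3KO and 82.4 in Nlrp3KO APP/PS1. At 9 months they were 61.5, 99.4, 60.9 and 108.4 CPM in the same order, and at 6 months 69.2 CPM in WT and 31.3 in Nlrp3KO. The amyloid libraries were again above all others, by 1.003 (SE 0.22, adjusted p = 0.00326 by edgeR). This value lies at the fold limit, and it was below it, down to 0.89, in 6 of the 9 alternatives run. Without the 9-month pair of Nlrp3KO libraries the adjusted p was 0.0529 by edgeR.

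Trem2 in DAM at 3 months had 3659 CPM in WT, 4587 in APP/PS1, 2823 in Nlrp3KO and 6258 in Nlrp3KO APP/PS1. At 9 months it had 4175, 4559, 3108 and 5426 CPM, and at 6 months 3836 in WT and 3244 in Nlrp3KO. The groups did not overlap, but the 9-month APP/PS1 library lay close above its WT partner, and the log2 fold change was 0.76 (SE 0.16, adjusted p = 0.00297 by edgeR). With DAM taken from the annotation of all CD45+ cells it was 0.48 (adjusted p = 0.0549 by edgeR). As for Tyrobp, the rise was larger in both Nlrp3KO pairs than in both pairs with intact Nlrp3.

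Cd33 in DAM at 3 months had 316.9 CPM in WT, 237.3 in APP/PS1, 401.9 in Nlrp3KO and 182.8 in Nlrp3KO APP/PS1. At 9 months it had 386.1, 276.5, 321.6 and 202.7 CPM, and at 6 months 375.7 in WT and 324.4 in Nlrp3KO. The fall with amyloid was larger in both Nlrp3KO pairs than in both pairs with intact Nlrp3. All amyloid libraries were below all others, by -0.52 (SE 0.16, adjusted p = 0.0453 by edgeR), but the adjusted p was above 0.05 by DESeq2 (0.113), without any 1 pair (0.0644 to 0.201), without high doublet scores (0.228) and with other definitions of DAM (0.0748 and 0.322). Syk (-0.35, SE 0.24), Plcg2 (-0.17, SE 0.20) and Inpp5d (-0.24, SE 0.15) did not pass the test in DAM. Inpp5d was lower in the amyloid library of 4 of 4 pairs, from 268.5 to 395.5 CPM against 372.5 to 490.8 CPM in its partners, and these ranges overlap.

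**Figure D3:**
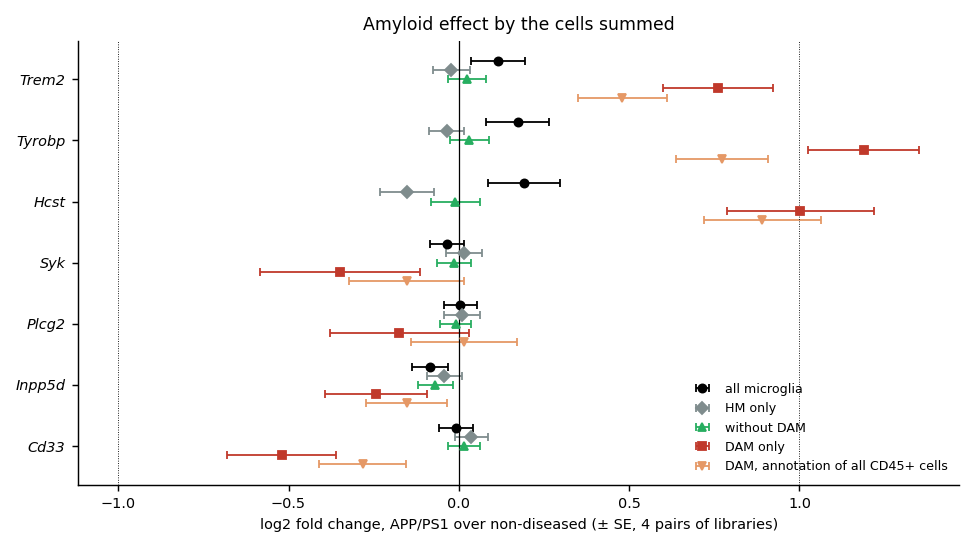
Log2 fold change of APP/PS1 over non-diseased libraries (horizontal axis, with SE, 4 pairs) for each gene, by the cells that were summed, with dotted lines at the fold limit. Points for all microglia, HM and microglia without DAM lie between -0.15 and 0.19, whereas DAM alone shows 1.19 for Tyrobp and -0.52 for Cd33, and 0.77 and -0.28 with the annotation of all CD45+ cells.

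DAM made up a larger share of the adaptor and receptor UMIs than of the cells. In the 9-month APP/PS1 and Nlrp3KO APP/PS1 libraries DAM were 11.7% and 11.5% of microglia and held 15.0% and 15.8% of their UMIs. They held 25.5% and 29.9% of the Tyrobp UMIs, 33.9% and 38.3% of the Hcst UMIs and 21.7% and 25.1% of the Trem2 UMIs. For Cd33 these shares were 12.3% and 9.60%, for Inpp5d 12.1% and 10.9%, for Syk 12.01% and 9.56% and for Plcg2 17.4% and 15.6%. In the 6 non-diseased libraries DAM held at most 4.14% of Tyrobp and 8% of Hcst UMIs.

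**Figure D4:**
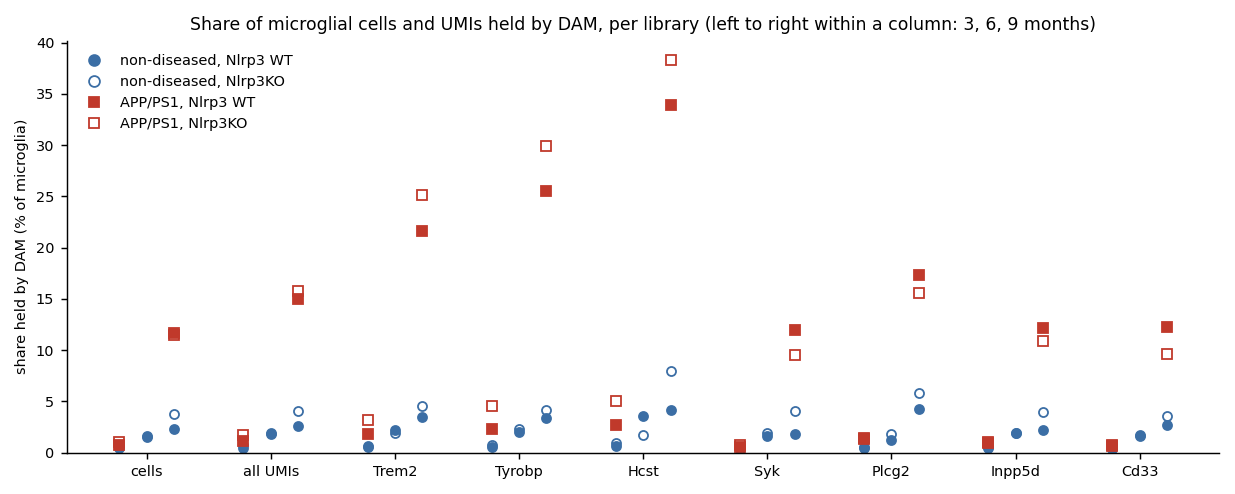
Share of microglial cells, of all microglial UMIs and of the UMIs of each gene held by DAM (vertical axis, percent) in each of the 10 libraries, ordered by age within each column. The 9-month APP/PS1 libraries hold 11.5% to 11.7% of cells but 25.5% to 38.3% of Tyrobp and Hcst UMIs in DAM.

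Among other genes of the path, those known as targets of the receptor were higher in cells labelled DAM of the amyloid libraries, and few signalling parts passed the test. Of 15 genes known to depend on Trem2 in DAM, 14 were tested, 11 were called as higher and 13 had an adjusted p under 0.05, beside 2.87% and 7.61% of all genes tested in DAM, with a median log2 fold change of 2.46. Among them were the lipase Lpl (4.68), the cystatin Cst7 (4.12), the fatty acid binder Fabp5 (3.203) and the receptor kinase Axl (2.58), and Spp1 (0.72, adjusted p = 0.499 by edgeR) was the one that did not pass, named after its value was seen. Gpnmb, a glycoprotein of lysosomes, had 192 UMIs in DAM of the 4 amyloid libraries and 0 in their partners, which is at least 19.1-fold higher against a floor of 3 UMIs over the group, and at that bound the median of the list was 2.46. Of the 6 genes known to rise before Trem2 is needed, all had an adjusted p under 0.05, beside the same 7.61%, and 2 were called, beside 2.87%, Apoe (1.79), a lipoprotein that TREM2 binds, and Lyz2 (1.72), a lysozyme. Several of these genes are markers by which DAM are recognised, and the lists were chosen with earlier results of these data known. The counts and medians therefore describe the labelled cells, and nothing about Trem2 is read from them. Gpnmb, without a UMI in the partners, passed the filter on low counts through the amyloid libraries alone. Lpl had 6.83 to 39.2 CPM in DAM of the partners, on 160958 to 525423 UMIs per library. Its fold change thus rests on few UMIs there.

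Few of the signalling parts passed the test, and the counts in the lists stand beside 2.87% of all genes called in DAM, with nothing read from a count of 1 or 2. Of 7 Src family and ITAM kinases tested, 1 was called, Tec (1.04, adjusted p = 0.0120 by edgeR), and Lyn was at -0.41 (adjusted p = 0.158 by edgeR). None passed the test among 12 adaptors and exchange factors, 9 genes of PI3K and AKT, 7 phosphatases, 9 genes of the phospholipase C branch, 3 other receptors that use Tyrobp or Hcst, 2 other ITAM adaptors and 4 of the MS4A family. Their median log2 fold changes were, in this order, -0.12, -0.04, 0.13, -0.09, -0.18, -0.23 and -0.47, beside -0.03 for all genes. Fcer1g, the adaptor of Fc receptors, was at 0.42 (adjusted p = 0.0573 by edgeR). Of 9 inhibitory receptors, 2 were called as lower, Clec4a2 (-1.195), a lectin, and Siglecg (-1.51), a sialic acid receptor of the same family as Cd33. Of 3 Trem2 ligands and sheddases tested, Apoe was called. In all microglia, 1 gene of the 12 lists was called, Gpnmb, with 194 UMIs in the amyloid libraries and 4 in their partners. There too it passed the filter on low counts through the amyloid libraries alone, and nothing is read from this call.

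Nlrp3 deletion did not change any of the 7 genes past the limits. Over 5 pairs of the same age and background, 0 of 7 were called in all microglia, against 0.0242% of all genes tested, and 0 by adjusted p alone, against 0.0404%. In DAM 0 of 7 were called, against 0.121%, and 0 by adjusted p alone, against 0.155%. In all microglia no member had an unadjusted p under 0.05 by edgeR or DESeq2, and in DAM 1 did by edgeR and 0 by DESeq2. Nothing is read from that 1, since the share of all genes at the unadjusted limit is not given here. Hcst was at -0.15 (SE 0.07, adjusted p = 0.903 by edgeR) and Inpp5d at -0.08 (SE 0.04, adjusted p = 0.903 by edgeR) in all microglia. In DAM, Inpp5d was at -0.25 (SE 0.12, adjusted p = 0.665 by edgeR), Trem2 at -0.05 (SE 0.13) and Tyrobp at 0.07 (SE 0.13). Of the lists, Fabp5 (1.44) was called in DAM and Apoe (0.87) passed by adjusted p alone (0.0149 and 0.0140 by edgeR), and none passed in all microglia. In the same DAM, the 6 border macrophage markers summed to 41.2 CPM in Nlrp3KO APP/PS1 and 8.79 in APP/PS1 at 3 months, and to 29.2 and 10.2 CPM at 9 months. In the non-diseased pairs they summed to 19.6 CPM in Nlrp3KO and 55.9 in WT at 3 months, 11.4 and 6.59 at 6 months, and 7.61 and 0 at 9 months. Apoe is highest in Lyve1 BAM (68060 CPM pooled over libraries). In DAM at 9 months Apoe was at 3629 CPM in Nlrp3KO and 803.0 in WT, the largest ratio of the 5 pairs. The share of DAM with a doublet score over 0.5 was 22.8% in Nlrp3KO APP/PS1 and 12.7% in APP/PS1 at 9 months, but 16.9% and 16.7% at 3 months. In the non-diseased pairs it was 2.70% in Nlrp3KO and 9.68% in WT at 3 months, 11.9% and 10.9% at 6 months, and 10.8% and 10.9% at 9 months. The part of these cells in the Apoe and Fabp5 values was not tested.

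The direction of the Trem2 values in DAM differed between backgrounds, without passing the adjusted test. Nlrp3KO was below its WT partner in the 3 non-diseased pairs, by -0.37, -0.24 and -0.43 on the log2 scale of CPM at 3, 6 and 9 months, and above it in both APP/PS1 pairs, by 0.45 and 0.25 at 3 and 9 months. The difference between backgrounds was 0.78 (SE 0.20, adjusted p = 0.566 by edgeR), and for Tyrobp it was 0.69 (SE 0.22, adjusted p = 0.989 by edgeR). By edgeR, 2 of the 7 genes had an unadjusted p under 0.05 for this term and 0 passed after adjustment, against 0.0173% of all genes, and by DESeq2 the counts were the same. That share is for the adjusted limit. Nothing is read from the 2 genes, since the share at the unadjusted limit is not given here. The single gene that passed in DAM was Cst7 of the list known to depend on Trem2, with a difference between backgrounds of 2.17 (SE 0.32, adjusted p = 0.00102 by edgeR). Its level in DAM was 2637 CPM in Nlrp3KO APP/PS1 and 848.1 in APP/PS1 at 3 months, and 2785 and 1602 CPM at 9 months, and in the non-diseased pairs it was lower in Nlrp3KO at each age, from 74.0 to 107.8 CPM against 111.8 to 205.0 CPM. In all microglia the term was 0.19 (SE 0.09) for Trem2 and 0.18 (SE 0.09) for Tyrobp. There 0 of 7 passed, against 0%, and 0 had an unadjusted p under 0.05 by edgeR or DESeq2.

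**Figure D5:**
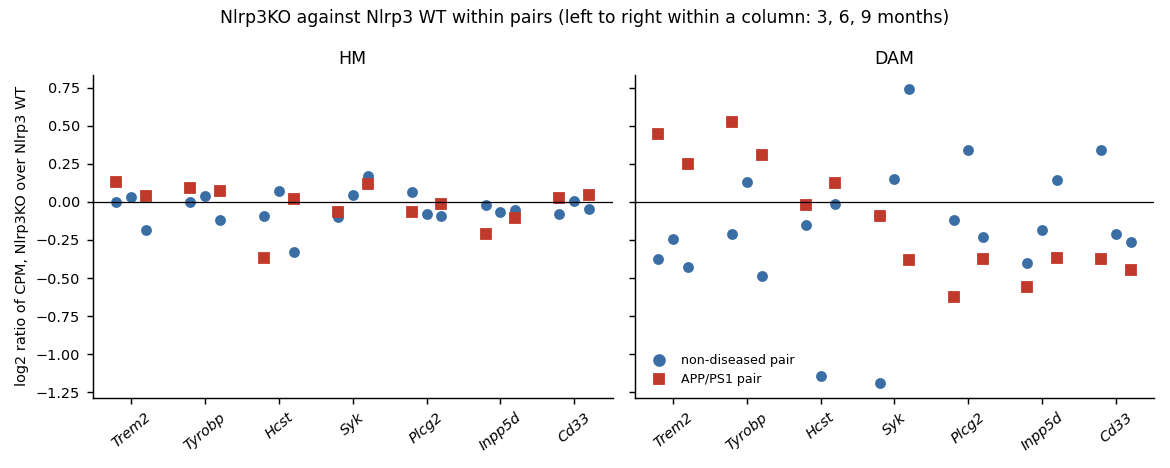
Log2 ratio of CPM between Nlrp3KO and its partner with intact Nlrp3 (vertical axis) in HM and in DAM, with 1 point for each of the 5 pairs. In HM the Trem2 ratios lie between -0.18 and 0.13, while in DAM the Trem2 ratios are between -0.43 and -0.24 in the 3 non-diseased pairs and 0.25 and 0.45 in the 2 APP/PS1 pairs.

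Between 3 and 9 months, which are also different batches, Hcst rose by less than the fold limit, and Tyrobp and Cd33 did not pass the test. Over 4 pairs of the same genotype, Hcst was at 0.39 (SE 0.11, adjusted p = 0.0491 by edgeR), Tyrobp at 0.27 (SE 0.08, adjusted p = 0.0580 by edgeR) and Cd33 at -0.17 (SE 0.05, adjusted p = 0.0516 by edgeR), while Trem2 was at 0.05 (SE 0.07). Of the 7 genes, 0 were called, against 3.91% of all genes tested, and 1 had an adjusted p under 0.05, against 23.3%, a share of members near that of all genes, from which nothing is read. At an unadjusted p under 0.05 there were 3 members by edgeR and 3 by DESeq2. The share of all genes at that limit is not given here, and nothing is read from this count either. The adjusted p of Hcst was 0.572 in HM alone, 0.165 without DAM, 0.152 without the APP/PS1 pair and 0.0978 without the Nlrp3KO APP/PS1 pair, all by edgeR.

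In the same comparison of ages, 5 of 14 genes tested that are known to depend on Trem2 in DAM were called as higher, against 3.91% of all genes called, Gpnmb (192 UMIs at 9 months and 6 at 3 months), Spp1 (2.34), Cst7 (2.32), Fabp5 (2.05) and Axl (1.61), as were the Src family kinase Fgr (1.199) and the inhibitory receptor Lilrb4a (1.39). In HM alone, where 1.89% of all genes were called, Fgr was called too (1.23, adjusted p = 0.0111 by edgeR). Of 13 genes of the Trem2 list tested there, 1 was called, Cst7 (1.34). Axl was at 1.03 (adjusted p = 0.0559 by edgeR), Spp1 at 1.97 (adjusted p = 0.0932 by edgeR) and Fabp5 at 0.14 (adjusted p = 0.727 by edgeR). None of 11 inhibitory receptors tested was called. Gpnmb and Lilrb4a did not pass the filter on low counts in HM and were not tested there. Cst7 in all microglia went from 15.8 CPM at 3 months to 40.04 CPM at 9 months in WT and from 15.2 to 29.4 CPM in Nlrp3KO, but from 28.4 to 325.4 CPM in APP/PS1 and from 78.3 to 571.0 CPM in Nlrp3KO APP/PS1. Of the Gpnmb UMIs, 194 were in the amyloid libraries of these pairs and 4 in the others, so these values rest mainly on the APP/PS1 pairs for both genes. The batch changed with age in all 4 pairs, and its part cannot be told apart. Gpnmb passed the filter on low counts through the 9-month libraries alone. The list holds DAM markers and was chosen with earlier results of these data known, so nothing is read from its count of called genes.

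The amyloid effect did not differ between ages for any member past the adjusted test. In all microglia the difference was 0.43 (SE 0.16, adjusted p = 0.880 by edgeR) for Hcst and 0.34 (SE 0.14, adjusted p = 0.880 by edgeR) for Tyrobp, with 0 of 7 called, against 0%, and 1 at an unadjusted p under 0.05 by edgeR and 1 by DESeq2. The 0% is for the adjusted limit, and without the share of all genes at the unadjusted one nothing is read from the 1 member. In DAM 0 of 7 passed, against 0.332% of all genes, and 0 had an unadjusted p under 0.05 by either tool. Of the lists, Spp1 (3.23, adjusted p = 0.0282 by edgeR) and Apoe (1.697, adjusted p = 0.0387 by edgeR) had a larger and Ccl6 (-1.39, adjusted p = 0.0216 by edgeR) a smaller amyloid effect in DAM at 9 than at 3 months. The values given above for the amyloid effect on Spp1 and Apoe in DAM are thus means over ages that differ. Apoe in DAM of the WT library of 9 months was at 803.0 CPM, on 55 cells. In the other non-diseased libraries it was at 2551 to 4392 CPM. The part of this 1 library in the Apoe difference is not given here.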

How the data were processed

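CD45+ cells from whole brains were profiled by 10x Genomics sequencing in 10 libraries. The authors deposited raw counts of UMIs per gene and cell, made with Cell Ranger against mm10 (versions are not given in the sources used here), after leaving out cells whose totals, gene numbers or mitochondrial shares lay over 3 median absolute deviations out, with 2 annotations of cell types made in Seurat after harmony. Deposited with them are a doublet score from 0 to 1, the percent of mitochondrial UMIs and a batch number. Of 52369 cells, 6897 under 2 sample names that match no sample description were not used. Doublets were not removed in the main values, and 7.63% of microglia had a doublet score over 0.5.

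UMIs were summed per library and cell type, since cells are not replicates. CPM are given for libraries with at least 20 cells of a type. A step between neighbouring types is called beyond the spread where the mean of the paired differences is larger than their SD. Sums were tested with edgeR 4.0.16 (filterByExpr, TMM, quasi-likelihood F test, Benjamini-Hochberg adjustment, R 4.3.3), with the pair of libraries as the block. Paired libraries shared age and Nlrp3 genotype for amyloid, age and background for Nlrp3, and genotype for age. The pairs come from the labels of age and genotype. DESeq2 1.42.0, its size factors, no filter on low counts, a fit without the block, other sets of cells and leaving out each pair were alternatives. The fits were tested on simulated data. Genes named are the 7 members, the pathway genes past a limit or among the 3 with the highest level of their list, and the 5 genes nearest in pattern, of which 1 is not reported here. The members and lists were chosen with earlier results of these data known.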

Additional observations from a re-analysis of the deposited data

Results flagged for a closer look

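Of 56 sets of libraries checked for a library far from the others, 3 held one, and chance gives about 1 in 20 sets. Trem2 in all microglia of the Nlrp3KO library of 9 months was at 2766 CPM, against 3115 to 3219 CPM in the 5 other non-diseased libraries. Tyrobp in all microglia of the Nlrp3KO APP/PS1 library of 9 months was at 3989 CPM, against 2969 to 3182 CPM in the 4 other Nlrp3KO libraries. Plcg2 in DAM of the Nlrp3KO library of 9 months was at 104.7 CPM, against 62.6 to 71.1 CPM in the 4 other Nlrp3KO libraries.

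In DAM, 4 genes of the pathway lists had effects that differed between groups by edgeR's interaction term after adjustment over all genes. The Nlrp3 effect on Cst7 differed between the APP/PS1 and non-diseased backgrounds by 2.17 on the log2 scale. The amyloid effect differed between 9 and 3 months by 1.697 for Apoe, 3.23 for Spp1 and -1.394 for Ccl6. The Apoe value includes the WT library of 9 months, which had the lowest Apoe level in DAM.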

How the results depend on the processing

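In all microglia the amyloid effect called 2 members in DAM only and 0 in the other settings. In HM only it turned to -0.0222 for Trem2, -0.035 for Tyrobp, -0.151 for Hcst, 0.0152 for Syk and 0.0372 for Cd33. Without DAM it turned to -0.0106 for Hcst, -0.00891 for Plcg2 and 0.0157 for Cd33. Plcg2 was at -0.000941 without high doublet scores, at -0.174 in DAM only and between -0.0225 and 0.0397 when 1 pair was left out, and Cd33 between -0.0429 and 0.022. In the amyloid effect in DAM, 1 to 2 members were called when 1 pair was left out, 1 without high doublet scores, 0 with the annotation of all CD45+ cells, 1 with DAM in both annotations and 4 by adjusted p alone, and Plcg2 turned to 0.0155 with the annotation of all CD45+ cells. The cause was not tested.

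The age difference called 1 member by adjusted p alone, and Trem2 turned to -0.062 in HM only and -0.0387 without DAM. The Nlrp3 effect in DAM lay between -0.18 and 0.0701 for Trem2 and between -0.0473 and 0.237 for Tyrobp when 1 pair was left out, and was 0.0723 for Trem2 with the annotation of all CD45+ cells. Thinning to 1500 UMIs gave shares of microglia with a UMI of 98.3%, 98.2%, 4.61%, 13.65%, 10.9%, 51.8% and 43.8% for Trem2, Tyrobp, Hcst, Syk, Plcg2, Inpp5d and Cd33. Of the alternatives for single members, 252 kept direction and side of the threshold, 22 turned, 7 passed it and 14 no longer did. The fit without the pair as a block called 0 members for amyloid, Nlrp3 and age. No paired analysis by replicate number was possible because the labels number no replicates. Alternatives without DAM, and all those of comparisons within DAM, were chosen after seeing the data. Hcst had 7 to 165 UMIs per library in DAM, which limits its precision.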

Other observations

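Across 17 cell types and states with at least 100 cells, the genes whose log2(CPM + 1) pattern was most like each member were named by Pearson's r among 10733 genes. These types share libraries, so r is a description with no test. Trem2 was nearest to Usp2 (r = 0.985), Lgmn, Slco2b1 and Itgb5, and Tyrobp to Fcer1g (r = 0.947), Fndc3b, Mpeg1, Plek and Kctd11. Syk was nearest to Ptpn6 (r = 0.963), Plcg2 (r = 0.958), Cbfa2t3, BC035044 and Hhex, and Plcg2 to Syk, Hhex, Cbfa2t3, Ptpn6 and Irf5. Inpp5d was nearest to Epb41l2 (r = 0.978), Tgfbr1, Fam102b, Gtf2h2 and Csnk1e, and Cd33 to Kdelc1 (r = 0.982), Tbxas1, Trf, Serpinf1 and Upp2. Hcst was nearest to Gm29243 (r = 0.95), F2r, Apol7e, Podnl1 and Esyt2. Among the members, r was 0.932 for Trem2 and Inpp5d, 0.906 for Trem2 and Cd33, 0.695 for Trem2 and Tyrobp, and -0.637 for Tyrobp and Hcst.

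In BAM, Trem2 averaged 784.5 CPM in the 4 amyloid libraries and 768.3 CPM in their partners and was higher in 3 of 4 pairs, and Tyrobp averaged 2552 and 2600 CPM and was higher in 2 of 4 pairs. Non-classical monocytes had 223.2 CPM of Syk and 148.4 CPM of Plcg2, pooled over libraries.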
